A study of Homo sapiens with 2 samples.

Results

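The genes described here encode the condensin complexes and DNA topoisomerase II of human cells. They were taken as every probe set of the deposited array table that the platform annotation gives to exactly 1 gene symbol among SMC2, SMC4, NCAPD2, NCAPG, NCAPH, NCAPD3, NCAPG2, NCAPH2, TOP2A and TOP2B, which found all 10 genes, of 19775 genes with such a probe set, through 20 probe sets. The cells were CL1-5, a highly invasive human lung adenocarcinoma line. One culture was given 0.11 µM analogue 3 for 24 h, a derivative of the natural product desmosdumotin C whose label lists iodo, tripropyl and methoxy groups, at the concentration reported as its median effective dose in this line, and the other was given the solvent DMSO for 24 h. RNA of each culture was read on 1 Affymetrix Human Genome U133 Plus 2.0 array, so that no difference below has a replicate check or a test. The comparison asks which transcripts differed between treated and control cells.

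Condensins are ring-shaped ATPases that extrude and hold loops of DNA and so compact chromosomes for mitosis. Condensin I and condensin II share the ATPase core made of SMC2 and SMC4, and each adds its own kleisin subunit, which closes the ring, and its own pair of HEAT-repeat subunits, which bind DNA. Condensin II is nuclear throughout the cell cycle, whereas condensin I gains full access to chromosomes only after the nuclear envelope breaks down. Topoisomerase II passes one DNA duplex through another, which untangles sister chromatids. TOP2A is the form made in proliferating cells, with most of its transcript in late S phase, G2 and mitosis, and TOP2B is also made in cells that do not divide. Both are targets of anticancer drugs such as etoposide and doxorubicin.

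Condensin and TOP2A transcripts were higher in analogue 3-treated cells than in DMSO-treated cells, and the TOP2B transcript was nearly unchanged. In the brightest probe set of each gene, intensity was higher on the analogue 3 array for all 10 genes, though hardly so for TOP2B. Ratios ran between 2.81 and 3.33 for NCAPG, NCAPD3, NCAPD2, NCAPH and NCAPG2, between 1.49 and 2.18 for NCAPH2, SMC4, TOP2A and SMC2, and reached 1.01 for TOP2B. In bulk RNA, a larger share of cells that carry a transcript and more of that transcript per cell cannot be told apart.

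The DNA just before the transcript starts is shown for 5 of the genes. They were chosen to set the higher topoisomerase gene beside the nearly unchanged one, and condensin genes with similar ratios beside each other. Sequences are the 250 bases upstream of RefSeq starts, from GRCh38.p14, written 5′ to 3′ on the gene's own strand. Capitals mark matches, on either strand, to the CCAAT box, to the cell cycle homology region TTTGAA, an element found in promoters of late cell cycle genes, and to the E2F core, searched as TTNNCGC with G or C at each N.
TOP2A: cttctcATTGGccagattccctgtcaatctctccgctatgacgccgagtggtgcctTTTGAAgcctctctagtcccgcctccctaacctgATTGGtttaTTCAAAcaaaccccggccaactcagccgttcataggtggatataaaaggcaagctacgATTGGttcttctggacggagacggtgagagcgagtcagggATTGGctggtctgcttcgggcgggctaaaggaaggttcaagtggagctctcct
TOP2B, start 1: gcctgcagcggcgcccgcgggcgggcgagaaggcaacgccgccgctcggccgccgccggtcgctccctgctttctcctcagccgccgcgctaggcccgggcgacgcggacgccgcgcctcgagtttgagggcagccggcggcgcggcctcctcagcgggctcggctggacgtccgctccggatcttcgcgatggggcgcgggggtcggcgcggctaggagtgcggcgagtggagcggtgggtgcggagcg
TOP2B, start 2: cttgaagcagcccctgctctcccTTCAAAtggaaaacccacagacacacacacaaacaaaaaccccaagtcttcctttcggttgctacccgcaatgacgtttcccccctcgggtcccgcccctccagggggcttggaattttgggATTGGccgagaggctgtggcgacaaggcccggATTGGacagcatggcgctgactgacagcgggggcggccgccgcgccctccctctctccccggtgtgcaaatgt
NCAPG: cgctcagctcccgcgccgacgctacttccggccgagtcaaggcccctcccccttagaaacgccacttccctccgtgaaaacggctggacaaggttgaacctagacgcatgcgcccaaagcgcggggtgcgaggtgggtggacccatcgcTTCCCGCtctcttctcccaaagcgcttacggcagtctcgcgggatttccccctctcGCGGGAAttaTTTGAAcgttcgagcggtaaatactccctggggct
NCAPD2: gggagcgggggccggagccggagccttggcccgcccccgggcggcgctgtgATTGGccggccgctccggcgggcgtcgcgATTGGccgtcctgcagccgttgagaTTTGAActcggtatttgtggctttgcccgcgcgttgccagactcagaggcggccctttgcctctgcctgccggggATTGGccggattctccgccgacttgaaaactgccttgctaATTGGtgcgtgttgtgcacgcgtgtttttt
NCAPG2: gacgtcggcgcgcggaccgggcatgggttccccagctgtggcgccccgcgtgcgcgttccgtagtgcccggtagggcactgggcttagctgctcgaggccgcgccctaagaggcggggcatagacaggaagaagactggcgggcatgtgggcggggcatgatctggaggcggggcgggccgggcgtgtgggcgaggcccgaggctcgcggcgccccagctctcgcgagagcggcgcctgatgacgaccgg
The TOP2A window lies at chr17:40417897-40418146 on the minus strand. It holds 4 CCAAT boxes, all in the inverted form ATTGG, at 244, 160, 93 and 53 bases before the start, and 2 TTTGAA matches. TOP2B has 2 annotated starts. The window at chr3:25664373-25664622, minus strand, has no match, and that at chr3:25664908-25665157, minus strand, has 2 CCAAT boxes and 1 TTTGAA. The NCAPG window at chr4:17810729-17810978, plus strand, has 2 E2F cores and 1 TTTGAA, with the nearer E2F core at 45 and the TTTGAA at 35 bases before the start. The NCAPD2 window at chr12:6493852-6494101, plus strand, has 4 CCAAT boxes and 1 TTTGAA, and the NCAPG2 window at chr7:158704805-158705054, minus strand, has none of these letters.

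RefSeq windows were found for 9 of the 10 genes, 13 windows in all. No match overlapped another there. CCAAT was in 5 of the 13 windows, against 32.01% of all 35116 RefSeq windows of the same length. TTTGAA was in 5 of 13, against 13.3%, and the E2F core was in 3 of 13, against 10.9%. Matches are letters in a window and show no binding. The NCAPD2 and NCAPG2 windows differ in content, and the TOP2B matches lie only in the window of start 2. Which start the cells used is not known from these data, and whether the matches bear on the ratios was not tested.

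**Figure D1:**
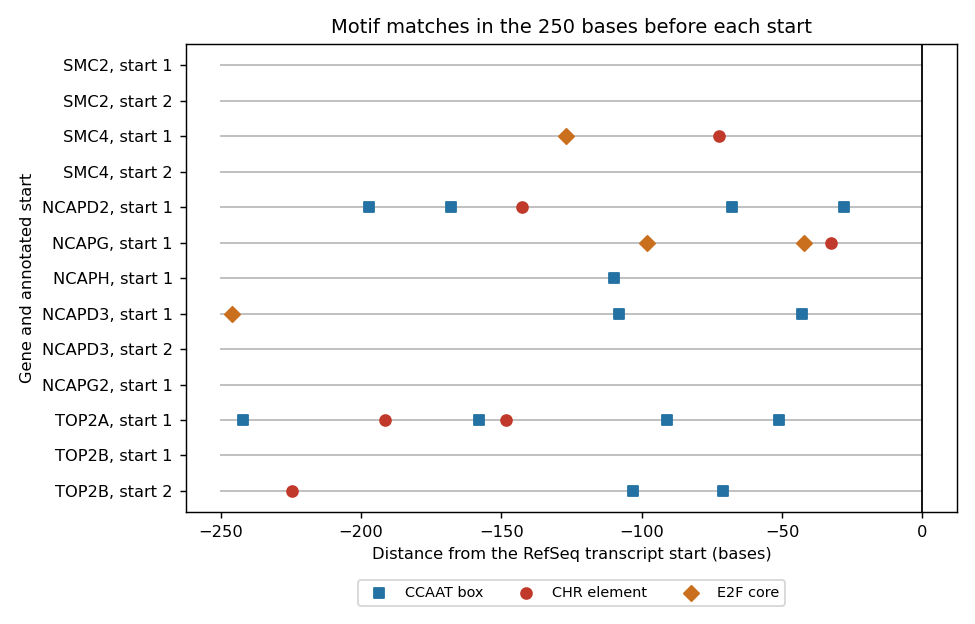
Matches to the CCAAT box (squares), the TTTGAA cell cycle homology region, CHR (circles), and the E2F core (diamonds) in the 250 bases before each RefSeq start of 9 member genes. The horizontal axis is the distance from the start in bases and each line is 1 annotated start. TOP2A has 6 matches, and some lines have none.

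Intensities are those the authors deposited, on a linear scale, and both arrays have a median of 1, so each value is a multiple of the array median. Levels of different probe sets are not compared, because probe sets differ in their response to RNA. Values under 32 (log2 5) were raised to that floor before a fold was taken, and a gene counted as measured when 1 array reached the floor. A fold against a DMSO value under 32 is a lower bound, given as "at least". A floor of 8 (log2 3) was used beside it, because 5 of the 9 measured members had DMSO values between 8 and 32. Error was gauged from the gap between probe sets of the same gene. Over 2874 genes with at least 2 probe sets above 8 on both arrays, the SD of 1 probe set was 0.23 on the log2 scale, and the SD of the gap between 2 probe sets was 0.32. Above 32 the SD of 1 probe set was 0.17 over 1127 genes. Culture, extraction and hybridisation error are outside these SDs, and the number of arrays limits the precision.

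The epithelial keratin KRT18 had 457.9 in analogue 3 cells and 460.8 in DMSO cells, and vimentin (VIM) had 1868 in analogue 3 cells and 1883 in DMSO cells. Another epithelial keratin, KRT8, had 77.8 in analogue 3 cells and 42.3 in DMSO cells, a log2 difference of 0.88, and KRT19 had 5.23 in analogue 3 cells and 2.24 in DMSO cells. EPCAM and the lung lineage factor NKX2-1 were at or under 1.86 on both arrays. Summed intensities of 4 leukocyte markers were 2.55 with analogue 3 and 3.07 with DMSO, those of 5 fibroblast markers were 8.18 and 6.57, and those of 4 endothelial markers were 19.0 and 14.4, most of it PECAM1. No marker was listed at 0. Signal from the 3′ end over that from the 5′ end, a measure of RNA quality, was 1.18 (analogue 3) and 1.21 (DMSO) for GAPDH, and for ACTB it was 10.0 (analogue 3) and 11.8 (DMSO). The ACTB signal was thus much stronger at the 3′ end on both arrays, which the GAPDH signal was not. The part of RNA quality in the differences was not tested.

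With the floor of 32, 9 of the 10 genes were measured, of which 1, NCAPG, was at least 2-fold higher with analogue 3. Among all 5050 measured genes 3.47% were at least 2-fold higher and 2.67% at least 2-fold lower. The median log2 difference over the 9 members was 0.78, against -0.01 over all measured genes, and all 9 lay above 0, as did 48.4% of measured genes. Of the 9, 5 counted as measured only through the analogue 3 array, so their floored differences could only lie above 0. Those 5 enter the median as lower bounds. Under the floor of 8, all 10 genes were measured on both arrays and 6 of them, all condensin subunits, were at least 2-fold higher, against 3.74% of 8523 measured genes, of which 3.92% were at least 2-fold lower. The median over the 10 members was then 1.31, against -0.05 over all measured genes. All 10 lay above 0, TOP2B by only 0.01, as did 44.5% of measured genes. The count therefore rests on the floor. With the floor of 32 the direction was free to differ only in the 4 members above it on both arrays, while with the floor of 8 no member was held at the floor.

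**Figure D2:**
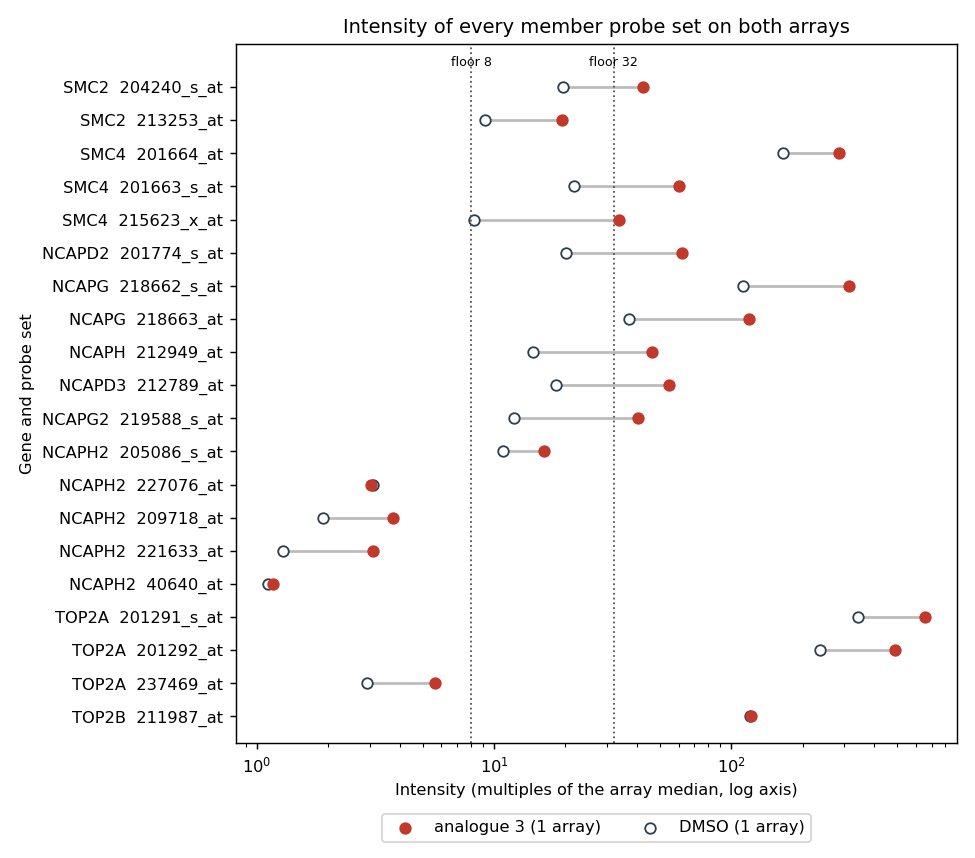
Intensity of all 20 member probe sets on the analogue 3 array (filled) and the DMSO array (open), in multiples of the array median on a log axis, 1 array per group. Dotted lines mark both floors. Analogue 3 is to the right of DMSO in 19 of the 20 probe sets, TOP2B is nearly unmoved, and 5 probe sets lie under 8 on both arrays.

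Both subunits of the shared ATPase core were higher, and their extents could not be ranked, because the SMC4 probe sets spread to either side of those of SMC2. SMC2 had an intensity of 42.5 in analogue 3 cells and 19.5 in DMSO cells. Its other probe set had 19.4 in analogue 3 cells and 9.17 in DMSO cells. The log2 differences of the pair, 1.13 and 1.08, lay closer together than the SD between probe sets, and with the floor of 32 the first is a bound of at least 1.33-fold.

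SMC4, the partner ATPase, had 285.6 in analogue 3 cells and 164.6 in DMSO cells in its brightest probe set, a 1.74-fold difference. Its second probe set had 60.5 in analogue 3 cells and 21.7 in DMSO cells, a ratio of 2.78, and its remaining one 33.6 in analogue 3 cells and 8.26 in DMSO cells, a ratio of 4.07. All 3 probe sets were higher with analogue 3, with log2 differences of 0.80, 1.48 and 2.02. The gaps to the brightest exceed 0.50, which 90% of genes with 2 probe sets above 8 stay within. The dimmest is of the x_at type, whose probes can share sequence with other transcripts, and the size of the SMC4 difference is therefore uncertain between 1.74 and 4.07.

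Condensin I adds NCAPD2, NCAPG and NCAPH to the core. NCAPG, a HEAT-repeat subunit, had 314.1 in analogue 3 cells and 111.9 in DMSO cells, and its other probe set had 118.9 in analogue 3 cells and 37.2 in DMSO cells. It was the only condensin gene above 32 on both arrays in 2 probe sets, with log2 differences of 1.49 and 1.68, and 0.79% of measured genes had a difference at least as large as the first. NCAPD2, the other HEAT-repeat subunit, had 62.1 in analogue 3 cells and 20.0 in DMSO cells, at least 1.94-fold higher against the floor of 32 and 3.10-fold in the ratio itself. NCAPH, the kleisin, had 46.3 in analogue 3 cells and 14.6 in DMSO cells, at least 1.45-fold higher against 32 and 3.17-fold in the ratio. The log2 differences of the 3 subunits, 1.63 for NCAPD2, 1.49 for NCAPG and 1.66 for NCAPH with the floor of 8, lay within 1 SD of a probe set of each other.

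Condensin II adds NCAPD3, NCAPG2 and NCAPH2. NCAPD3, a HEAT-repeat subunit, had 54.8 in analogue 3 cells and 18.2 in DMSO cells, at least 1.71-fold higher against 32 and 3.01-fold in the ratio. NCAPG2, the other HEAT-repeat subunit, had 40.4 in analogue 3 cells and 12.1 in DMSO cells, at least 1.26-fold higher against 32 and 3.33-fold in the ratio, the largest of the 10 brightest probe sets. The log2 differences with the floor of 8, 1.59 for NCAPD3 and 1.73 for NCAPG2, lay within 1 SD of a probe set of each other.

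NCAPH2, the condensin II kleisin, had a log2 difference of 0.58 with the floor of 8, the lowest of the condensin genes in the brightest probe sets, though 0.80 for SMC4 lay within the SD between probe sets of it. Its brightest probe set had 16.3 in analogue 3 cells and 10.9 in DMSO cells, under the floor of 32 on both arrays, with a ratio of 1.49. The other 4 probe sets lay between 1.17 and 3.73 in analogue 3 cells and between 1.12 and 3.10 in DMSO cells, too low to give a fold. Of the 5, 4 were higher with analogue 3 and 1 was not, at 3.03 in analogue 3 cells and 3.10 in DMSO cells.

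**Figure D3:**
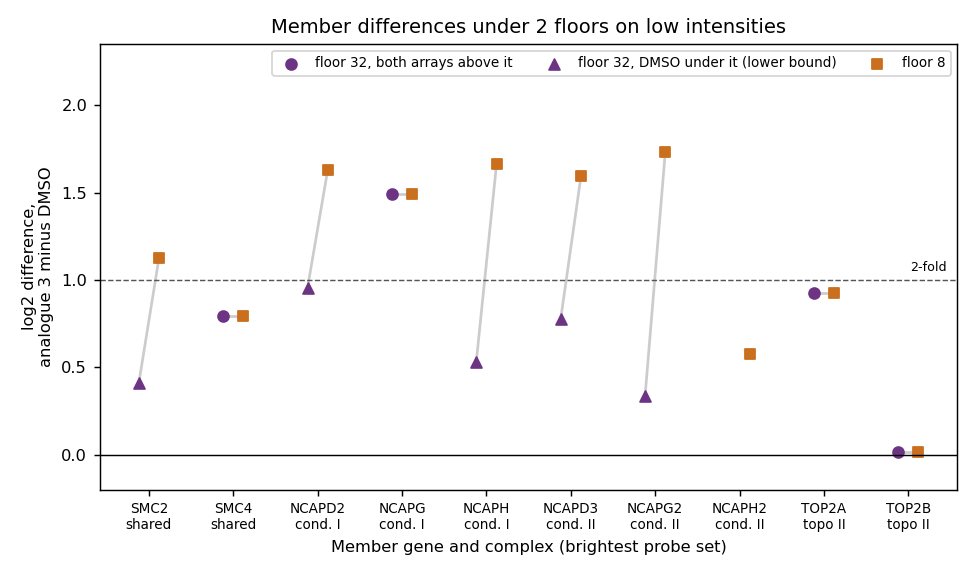
log2 difference, analogue 3 minus DMSO, of each member's brightest probe set, with the floor of 32 (circles where both arrays reach it, triangles for lower bounds) and the floor of 8 (squares). With the floor of 8, NCAPD2, NCAPG, NCAPH, NCAPD3 and NCAPG2 lie between 1.49 and 1.73, NCAPH2 at 0.58 and TOP2B at 0.01.

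Set against each other, the 2 complexes had similar differences apart from the kleisin. The median log2 difference was 1.63 over 3 condensin I subunits and 1.59 over 3 condensin II subunits with the floor of 8, a difference of 0.04. It was 0.96 over 3 condensin I subunits and 0.56 over 2 condensin II subunits with the floor of 32, a difference of 0.40, in which 4 of the 5 values are lower bounds. Subunit by subunit with the floor of 8, NCAPD2 minus NCAPD3 was 0.04 and NCAPG minus NCAPG2 was -0.24, both smaller than the SD of 0.32 between 2 probe sets. NCAPH minus NCAPH2 was 1.09, larger than that SD. The NCAPH2 value in it comes from 1 probe set under 32 on both arrays, at 16.3 in analogue 3 cells and 10.9 in DMSO cells. With 1 array per group the difference between complexes was not tested.

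The low level of several subunits leaves them in a range where ratios spread more, so genes of like level were counted. Of 3533 genes with a geometric mean intensity between 16 and 64, 4.22% showed a ratio of 2 or more and 4.47% a ratio of 0.5 or less. The members in that range were SMC2, NCAPD2, NCAPH, NCAPD3 and NCAPG2, and all 5 had log2 differences between 1.13 and 1.73. NCAPH2, with a geometric mean intensity of 13.3, lay below the range and was not counted. Its log2 difference was 0.58, a ratio of 1.49, so the count does not cover every dim subunit.

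**Figure D4:**
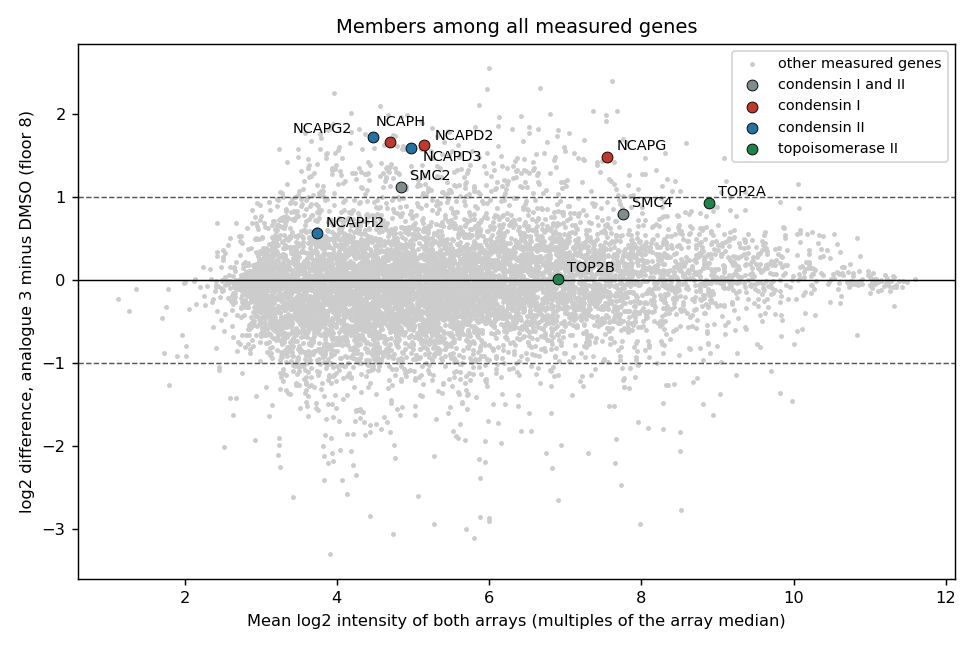
log2 difference, analogue 3 minus DMSO with the floor of 8, against the mean log2 intensity of both arrays, for 8523 measured genes (grey) and the 10 members (coloured by complex). Dashed lines mark 2-fold. Of the members, 6 lie above the upper line, TOP2A is just under it at 0.93, and TOP2B lies at 0.01.

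TOP2A had 653.5 in analogue 3 cells and 343.6 in DMSO cells, a log2 difference of 0.93, or 1.90-fold. Its second probe set had 487.8 in analogue 3 cells and 237.2 in DMSO cells, a log2 difference of 1.04, or 2.06-fold. The remaining, dim probe set had 5.65 in analogue 3 cells and 2.90 in DMSO cells, too low to give a fold. Whether TOP2A passed 2-fold thus depended on the probe set, while the gap between both log2 differences, 0.11, was smaller than the SD between probe sets.

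TOP2B had 120.8 in analogue 3 cells and 119.6 in DMSO cells in its single probe set, a log2 difference of 0.01. TOP2A minus TOP2B was 0.91 on the log2 scale for the brightest TOP2A probe set and 1.03 for the next. Both exceed the SD of 0.32 between probe sets, and no test was possible.

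Genes that act with condensin were in part higher as well. Of 17 listed regulators and partners, 16 had a single-gene probe set and 11 were measured with the floor of 32. Of the 11, 6 were at least 2-fold higher, against 3.47% of all measured genes, and none at least 2-fold lower, against 2.67%. Their median log2 difference was 1.19. Down to the floor of 8, 10 of 16 were at least 2-fold higher, against 3.74% of all measured genes, and the median was 1.24. CDCA8, KIF22 and MKI67 were among the 11, and INCENP and PLK1 among the 16, only through the analogue 3 array. CDK1, the kinase that phosphorylates condensin at mitotic entry, was 2.89-fold higher, at 235.1 in analogue 3 cells and 81.4 in DMSO cells. KIF4A, the chromokinesin that works with condensin I on the chromosome axis, was 2.50-fold higher, at 141.6 in analogue 3 cells and 56.6 in DMSO cells. AURKB, BIRC5 and CDCA8 belong to the chromosomal passenger complex, which promotes condensin I loading. AURKB was 2.28-fold higher, BIRC5 2.73-fold higher and CDCA8 at least 1.53-fold higher. MKI67, which coats mitotic chromosomes, had 60.3 in analogue 3 cells and 15.2 in DMSO cells, at least 1.88-fold higher. BUB1, the kinase whose histone mark helps bring the passenger complex to centromeres, was 3.55-fold higher.

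Of the other genes of that list, CCNB1 was 2.30-fold higher, at 526 in analogue 3 cells and 229.1 in DMSO cells. KIF22 had 32.9 in analogue 3 cells and 13.5 in DMSO cells, at least 1.03-fold higher against 32 and 2.44-fold in the ratio. CCNF was under 32 on both arrays, at 24.1 in analogue 3 cells and 9.62 in DMSO cells, with a ratio of 2.51. The genes named next had smaller differences or levels too low to size. RB1, the retinoblastoma gene whose product binds the condensin II subunit NCAPD3, had 103.6 in analogue 3 cells and 106.4 in DMSO cells. CSNK2A1, a catalytic subunit of casein kinase 2, which phosphorylates condensin I in interphase, had 153.9 in analogue 3 cells and 229.0 in DMSO cells, a log2 difference of -0.57. PLK1, a kinase that phosphorylates condensin II, was under 32 on both arrays, at 9.82 in analogue 3 cells and 2.92 in DMSO cells, and the passenger scaffold INCENP likewise, at 8.09 in analogue 3 cells and 2.39 in DMSO cells. Both were higher with analogue 3 at levels too low for the size to be given.

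No other topoisomerase gene was at least 2-fold different. TOP1, which relaxes DNA by cutting 1 strand, had 202.1 in analogue 3 cells and 220.5 in DMSO cells. The mitochondrial enzyme gene TOP1MT had 46.5 in analogue 3 cells and 69.6 in DMSO cells, a log2 difference of -0.58. TOP3A and TOP3B were under 8 on both arrays.

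Among genes that work beside topoisomerases, TOPBP1, a replication and checkpoint scaffold, was 2.11-fold higher, at 80.7 in analogue 3 cells and 38.2 in DMSO cells. ERCC6L, the translocase that coats ultrafine anaphase DNA bridges, had 38.1 in analogue 3 cells and 11.2 in DMSO cells, at least 1.19-fold higher against 32 and 3.40-fold in the ratio. TDP2, which removes trapped topoisomerase II from DNA ends, had 196.9 in analogue 3 cells and 268.0 in DMSO cells, a log2 difference of -0.44. TDP1, which does so mainly for topoisomerase I, had 26.1 in analogue 3 cells and 11.4 in DMSO cells. In all, 1 of 6 genes measured with the floor of 32 was at least 2-fold higher, against 3.47% of all measured genes, with a median log2 difference of -0.03. Under the floor of 8 it was 5 of 9, against 3.74%, with a median of 1.08, so the sign of this list's median rests on the floor. ERCC6L and RMI1 were among the 6, and BLM and RMI2 among the 9, only through the analogue 3 array.

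The other SMC proteins showed no 2-fold difference. Of 7 such genes, 5 were measured with the floor of 32 and 6 with the floor of 8, with median log2 differences of 0.24 and 0.14. The cohesin ATPases SMC1A and SMC3 were 1.64- and 1.18-fold higher. SMC6, of the SMC5/6 complex, had 44.8 in analogue 3 cells and 47.4 in DMSO cells. RAD50, the ATPase of the MRN break-repair complex, had 31.4 in analogue 3 cells and 52.4 in DMSO cells. The condensin ATPases SMC2 and SMC4 had ratios of 2.18 and 1.74 in the same measure, and the gap between SMC4 and SMC1A, at log2 differences of 0.80 and 0.71, was smaller than the SD between probe sets.

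**Figure D5:**
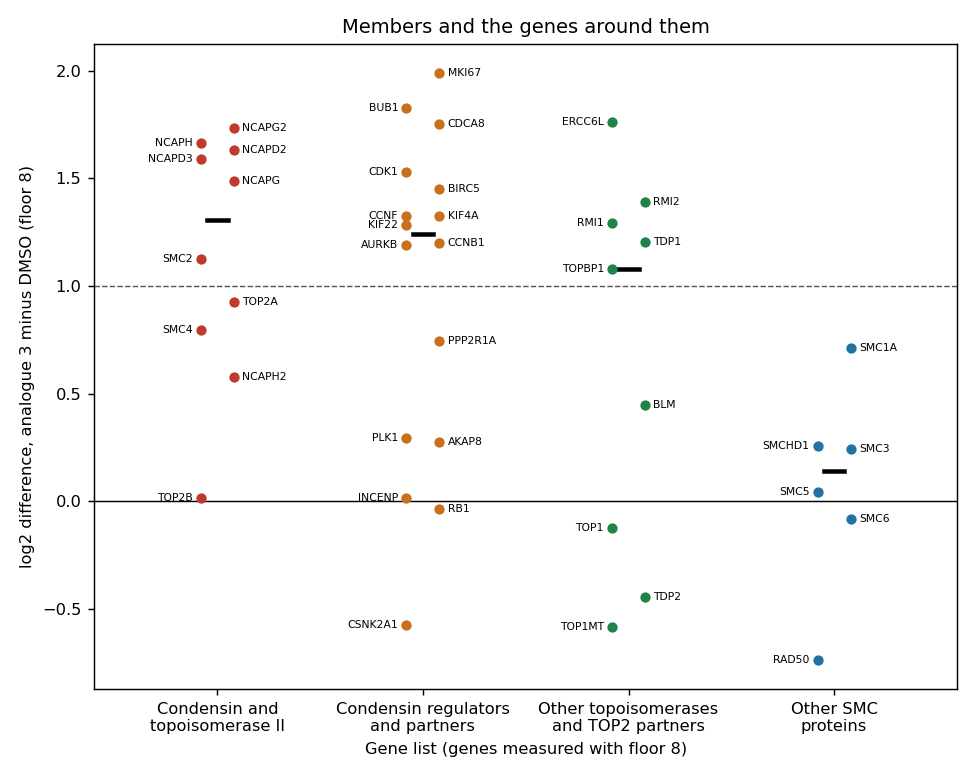
log2 difference, analogue 3 minus DMSO with the floor of 8, for each measured gene of the members and of 3 related lists. Short black lines are medians, at 1.31, 1.24, 1.08 and 0.14 from left to right, the dashed line marks 2-fold, and INCENP, PLK1, BLM and RMI2 are lower bounds against 8. TOP2B, TOP1 and RB1 lie near 0, and no other SMC protein reaches 2-fold.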

How the data were processed

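The intensity values the authors deposited, 1 per probe set and array for 54675 probe sets, are on a linear scale. GCRMA is named in the submitters' processing notes, and its version is not given in the sources used here. Both columns have a median of 1, read here from the values as a division by the array median that no label states. Gene names came from the platform annotation at GEO, where 41097 probe sets carry exactly 1 symbol, and of these the probe set brightest on average (log2) stood for its gene. Values were floored at 32 or 8, log2-transformed and subtracted (analogue 3 minus DMSO). A difference was counted from 2-fold. No test was run, since each group has 1 array. The procedure was run on simulated data, with differences put only into bright genes and error taken from the spread between probe sets. That check does not cover the condensin genes with DMSO values under 32, nor culture or array error. The members, the lists and the floor of 32 were chosen with earlier results of these data known. Genes named are all members, and genes of the 3 related lists and of the marker lists. The rule also named the 5 measured genes nearest to TOP2A and to NCAPG in level, which are not reported, since levels of different probe sets are not comparable. Promoter windows were taken from RefSeq (GRCh38.p14). Alternatives were floors of log2 1, 3, 4 and 7, no floor, median centring, loess (span 0.3), quantile normalization, the median of probe sets, omission of _s_at and _x_at probe sets, and thresholds of 1.5-fold and 3-fold. Python 3.11.15, pandas 2.3.3 and statsmodels 0.14.6 were used.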

Additional observations from a re-analysis of the deposited data

How the results depend on the processing

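Replication is the main limit: there was 1 array per group, and no array could be left out. No paired analysis was possible because the groups hold 1 array each. The floor had the widest effect. With floors of log2 1, 3 and 4 and with no floor, 6 of 10 members were at least 2-fold higher instead of 1 of 9. The members' median log2 difference was 1.31, 1.31, 1.23 and 1.31 instead of 0.78. Condensin I minus condensin II was 0.039, 0.039, 0.20 and 0.039 there, against 0.40 with the floor of 32. In those settings fewer values are held at the floor, and NCAPH2 enters the condensin II median, which holds 2 subunits with the floor of 32. After loess removal 2 of 9 measured members were at least 2-fold higher, with the median of probe sets 2 of 8, and without _s_at and _x_at probe sets 2 of 6. In the main setting 5 of 9 passed 1.5-fold and 0 of 9 passed 3-fold. Over all measured genes, 175 of 5050 were at least 2-fold higher in the main setting. With floors of log2 1, 3, 4 and 7 and with no floor it was 419 of 11158, 319 of 8523, 254 of 6886, 43 of 1933 and 475 of 19775. It was 187 of 5050 after loess removal, 120 of 2898 with the median of probe sets and 113 of 3079 without _s_at and _x_at probe sets. Of the 5050 genes, 477 passed 1.5-fold and 29 passed 3-fold. Lower genes numbered 135 of 5050 in the main setting. They numbered 586, 334, 217, 38 and 724 with floors of log2 1, 3, 4 and 7 and with no floor, out of the same totals. It was 81 of 2898 with the median of probe sets, 89 of 3079 without _s_at and _x_at probe sets, 461 of 5050 at 1.5-fold and 34 of 5050 at 3-fold. With the floor of log2 7, TOP2B and 5 of the 6 subunits that belong to 1 complex were not measured, so neither comparison between them could be made. TOP2A minus TOP2B ran between 0.85 and 1.03 over the settings that gave it. Single member differences moved by more than the SD of 1 probe set (0.17) in 22 of 80 values. Measured members with a DMSO value under 32 moved in every setting with a lower floor or no floor. Those above 32 on both arrays could not move there, so the share of moved values understates the effect of the floor. A change of sign was looked for only in members at least 2-fold different in the main setting, which was NCAPG alone. NCAPG stayed higher with analogue 3 in every setting. TOP2B lay between -0.03, after quantile normalization, and 0.03.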

Other observations

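The 3 probe sets of SMC4 gave different ratios of analogue 3 to DMSO, 1.74, 2.78 and 4.07, with DMSO intensities of 164.6, 21.7 and 8.26. Among probe sets above 8 on both arrays, those of SMC2, NCAPG and TOP2A kept log2 differences within 0.05, 0.19 and 0.11 of each other. The cause of the SMC4 spread was not tested.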
